A study of Mus musculus with 2 samples.

Results

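The skeletal muscle microRNAs, often called myomiRs, are 6 of the 1973 microRNA genes in the deposited tables: Mir206, Mir133b, Mir499, Mir1a-1, Mir133a-1 and Mir133a-2. They were selected by gene symbol. All 6 were found in both tables by their Ensembl identifiers. The samples were limbs of B6NCrl mouse embryos taken at embryonic day 14.5, with pooled sex and with no treatment or altered allele named in the labels. There was 1 group of 2 biological replicates, each taken from 4 limbs, and RNAs under 30 nucleotides were sequenced. The labels placed both replicates under 1 donor identifier and gave different collection days, and they named 1 pup while giving the sex as pooled, so the values measure the spread between these samples, which may be partly technical. The design held no contrast between conditions. It asked which microRNAs the embryonic limb holds and at what level.

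MicroRNAs are short RNAs cut from hairpin precursors, and they pair with target mRNAs mainly through a seed near their 5′ end. Myogenic transcription factors such as MyoD and myogenin switch on the muscle genes among them. Mir206 is a microRNA of skeletal muscle, whereas the Mir1 and Mir133a genes serve both heart and skeletal muscle, where they favour differentiation and tune the growth of precursor cells. Mir499 is carried by a myosin heavy chain gene and is tied to slow muscle fibres. In the limb, muscle precursors migrate in from the somites and later fuse into fibres.

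The sequences below are shown because they decide what a read count can tell about each gene. They were taken from RefSeq on the GRCm38.p6 build, which held a mature entry for 4 of the 6 members. Mature forms are written 5′ to 3′ with the seed, bases 2 to 8, in capitals.
miR-206-3p: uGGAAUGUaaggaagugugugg
miR-206-5p: aCAUGCUUcuuuauauccucaua
miR-1a-1-5p: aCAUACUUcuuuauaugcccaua
miR-133b-3p: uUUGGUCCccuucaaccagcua
miR-499-5p: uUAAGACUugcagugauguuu
miR-208b-3p: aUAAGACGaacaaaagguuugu
miR-208a-3p: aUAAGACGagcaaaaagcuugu

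The seed of miR-206-3p (chr1:20679055-20679076, plus strand) also occurred in the precursors of Mir1a-1 and Mir1a-2, and miR-6349 and miR-6382 have the same seed. The opposite arms of Mir206 and Mir1a-1 were close as well, since miR-206-5p and miR-1a-1-5p were identical at 20 of 23 positions. The seed of miR-133b-3p (chr1:20682834-20682855, plus strand) occurred in the precursors of Mir133a-1, Mir133a-2 and Mir133c. The seed of miR-499-5p (chr2:155622893-155622913, plus strand) matched those of miR-208b-3p (chr14:54975710-54975731, minus strand) and miR-208a-3p (chr14:54949072-54949093, minus strand) at 6 of 7 bases. The last 2 are microRNAs of myosin genes too and are not members. miR-208a-3p and miR-208b-3p shared a seed and 19 of 22 positions.

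The members differed in how much sequence they share with other microRNA genes. The precursors below are given for the 3 members that were counted well above the floor, with both mature arms in capitals; which arm gave the reads is not recorded in the tables.
Mir206: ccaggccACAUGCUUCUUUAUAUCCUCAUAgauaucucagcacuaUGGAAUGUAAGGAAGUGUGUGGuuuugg
Mir133b: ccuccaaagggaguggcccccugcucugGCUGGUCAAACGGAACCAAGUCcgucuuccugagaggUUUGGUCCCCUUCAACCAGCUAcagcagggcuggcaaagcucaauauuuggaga
Mir499: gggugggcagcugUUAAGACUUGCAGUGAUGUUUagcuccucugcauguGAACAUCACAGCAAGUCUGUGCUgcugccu

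Against all other microRNA precursors of GENCODE M21, on both strands, the longest stretch that Mir206 shared was 13 nucleotides, and that of Mir499 was also 13. Neither is long enough for a full-length read to match another microRNA gene without mismatches. For Mir133b the longest shared stretch was 21 nucleotides, with Mir133a-1 and Mir133a-2. The first 21 of the 22 bases of miR-133b-3p lay in it, so only the last base tells this form from its relatives. A read of this form that lacks the last base would match all 3 genes, and a Mir133a read with an altered last base could be counted at Mir133b. Since the alignment settings are not given, the Mir133b counts are uncertain in both directions. Mir1a-1 shared a stretch of 28 nucleotides with Mir1a-2 and Mir1b, and Mir133a-1 and Mir133a-2 shared one of 31 nucleotides with each other. Of the stretches of 22 nucleotides in these precursors, 7 of 56 were shared for Mir1a-1, 13 of 47 for Mir133a-1 and 13 of 83 for Mir133a-2. Sharing was examined among microRNA precursors alone, and other places in the genome were not searched.

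**Figure D1:**
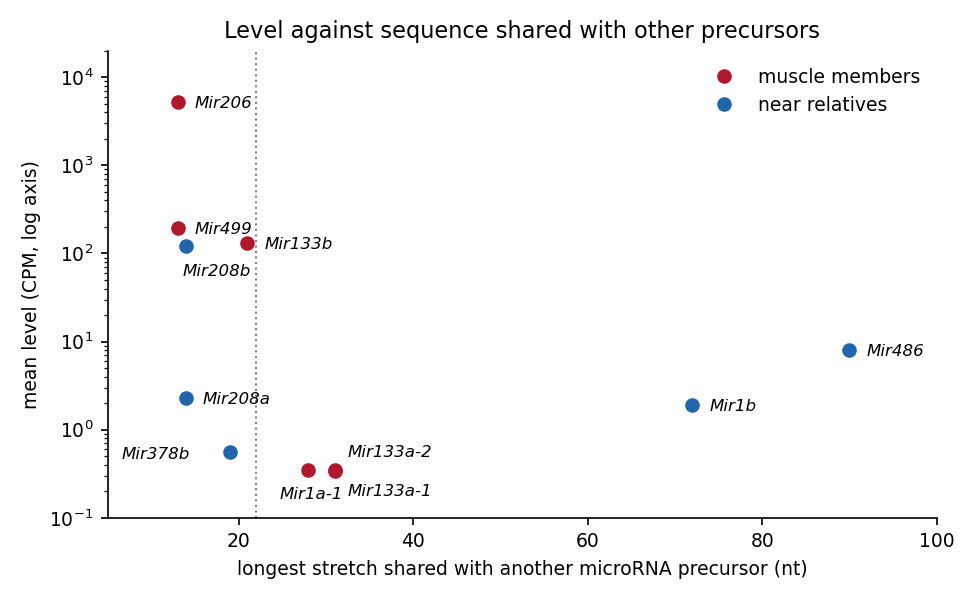
Longest stretch in nucleotides that each precursor shares with another microRNA precursor (x axis) against the mean level of the 2 libraries in CPM, own-strand counts scaled to a library total of 1000000, on a log axis (y axis), for the 6 members in red and the counted near relatives in blue. The dotted line marks 22 nucleotides, and the 3 members to its right, Mir1a-1, Mir133a-1 and Mir133a-2, lie below 1 CPM while the 3 to its left lie above 100 CPM.

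Some of the member genes lie in pairs. Mir206 (ENSMUSG00000065559.1, chromosome 1 from 20679010 to 20679082 on GRCm38, plus strand) and Mir133b (ENSMUSG00000065480.1, 20682769 to 20682887, plus strand) lie 3686 bases apart, and both overlap exons of the long noncoding RNA gene Gm28653. Mir499 (ENSMUSG00000076312.1, chromosome 2 from 155622880 to 155622958, plus strand) lies in an intron of Myh7b, which encodes a myosin heavy chain. Mir1a-1 and Mir133a-2 lie 9254 bases apart on the plus strand of chromosome 2 with no other annotated transcript over them in M21. Mir133a-1 lies on chromosome 18 in an intron of its annotated host gene Mir133a-1hg.

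Replicate 1 held 4608816 counts on the own strand of a microRNA gene and replicate 2 held 4144385, out of 9001596 and 8387546 reads. The unit of level is CPM, own-strand counts scaled to a total of 1000000 in each library, and means carry the SD over n = 2. The floor was set at 3 counts, which is 0.651 CPM in replicate 1 and 0.724 in replicate 2. Intervals are exact Clopper-Pearson intervals at 95%, and intervals and floors cover counting error only. How evenly microRNAs yield reads was not measured, so ratios between genes compare reads. Markers of limb tissue were present: the cartilage microRNA Mir140 reached 55579 CPM in replicate 1 and 58999 in replicate 2. The list of neurons (Mir124a-1, Mir124a-2, Mir124a-3, Mir9-2 and Mir9-3 in the tables) held 2 counts in replicate 1 and 0 in replicate 2. These genes have near-identical copies whose reads are lost to several alignments, so nothing follows from their low counts.

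Mir206 had the highest counts of the 6 members. It had 27840 counts in replicate 1 and 18282 counts in replicate 2, or 6041 CPM (interval 5970 to 6112) and 4411 CPM (4348 to 4476). The mean was 5226 ± 1152 CPM (SD, n = 2), which placed it at rank 39 of all genes by own-strand counts with a single alignment. Genes with near-identical copies are undercounted in this order. Opposite-strand reads, such as the 40047 in replicate 1 and 30671 in replicate 2 at Gm25301, are left out of it. The intervals of the libraries lay far apart, so the replicates differed by much more than counting error. Of the counts assigned to the 6 members, Mir206 had 94.0% in replicate 1 and 94.2% in replicate 2. Reads of Mir1a and Mir133a with several alignments are missing from these counts, so the shares do not rank Mir206 against those microRNAs. The counting intervals of these shares, 93.7% to 94.3% and 93.9% to 94.5%, overlapped.

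Mir499 and Mir133b formed a second tier. Mir499 had 1053 counts in replicate 1 and 666 counts in replicate 2, or 228 CPM (interval 215 to 243) and 161 CPM (149 to 173), with a mean of 195 ± 47.9 CPM at rank 162. Mir133b had 716 counts in replicate 1 and 452 counts in replicate 2, or 155 CPM (144 to 167) and 109 CPM (99.2 to 120), with a mean of 132 ± 32.7 CPM at rank 180. For both genes the higher library was replicate 1, and the ranges of the replicates of Mir499 and of Mir133b did not overlap each other.

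Mir1a-1, Mir133a-1 and Mir133a-2 were at the floor. Mir1a-1 had 1 count in replicate 1 and 2 in replicate 2. Mir133a-2 likewise had 1 and 2 counts, and Mir133a-1 had 2 counts in replicate 1 and 1 in replicate 2. Together they held 4 counts in replicate 1 and 5 in replicate 2. All 3 lay under the floor of 3 counts in both libraries, so neither their order nor a difference between the libraries was detectable. Reads with several alignments, which were not given to any gene, numbered 2865223 in replicate 1 and 2735942 in replicate 2, or 103 and 150 for each count of Mir206. What part of them came from Mir1a or Mir133a cannot be read from the tables. These values therefore do not show low expression of the genes.

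**Figure D2:**
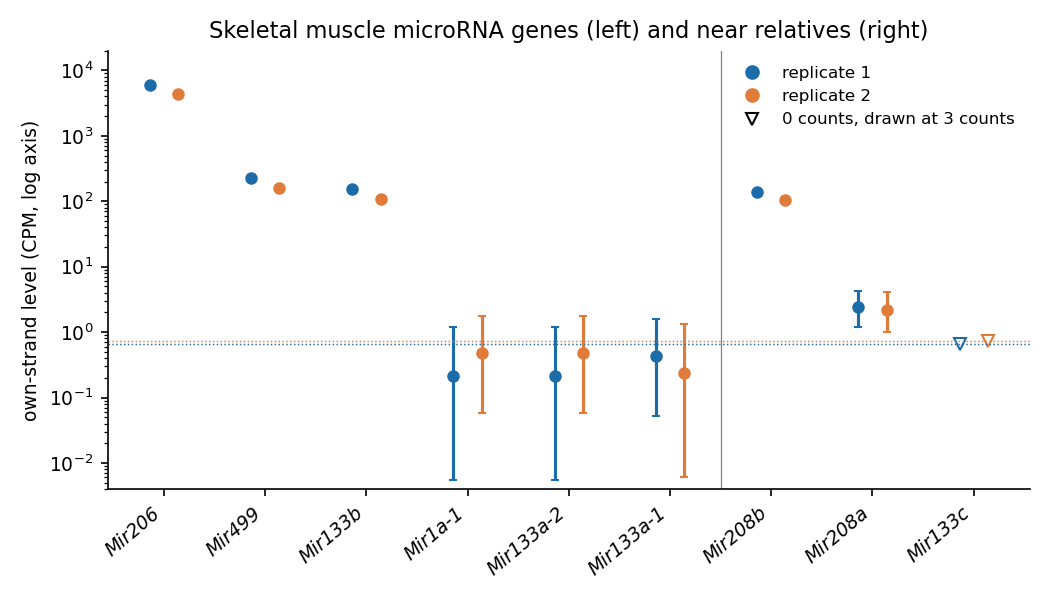
Own-strand level in CPM (log axis) of the 6 members and 3 near relatives, with a point for each library (replicate 1 left and blue, replicate 2 right and orange) and exact 95% counting intervals as bars. Mir206 stands at 6041 CPM in replicate 1 and 4411 CPM in replicate 2, Mir499, Mir133b and Mir208b lie between 104 and 228 CPM, and Mir1a-1, Mir133a-1 and Mir133a-2 lie under the dotted lines that mark 3 counts.

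No member had a read on the opposite strand in either library. The own-strand and either-strand columns were thus equal for all 6 genes.

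In the order of all genes, each detected member stood among neighbours of close mean level. Next above Mir206 were Mir381 (5874 and 4853 CPM in replicates 1 and 2) and Mir181d (4970 and 5629 CPM), and next below were Mir27b and Mir429. The neighbours of Mir499 were Mir187 and Mir185 above and Mir128-1 and Mir574 below. Those of Mir133b were Mir495 and Mir328 above and Mir679 and Mir101a below. In all 12 cases the range of the neighbour's replicates overlapped that of the member. Neighbours were picked by closeness in mean level, so this overlap was built in and does not test a difference. The genes whose pair of levels lay nearest to that of Mir206 were Mir381, Mir429 and Mir182, at distances of 0.14, 0.31 and 0.36 in log2(CPM + 1) over the 2 libraries.

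**Figure D3:**
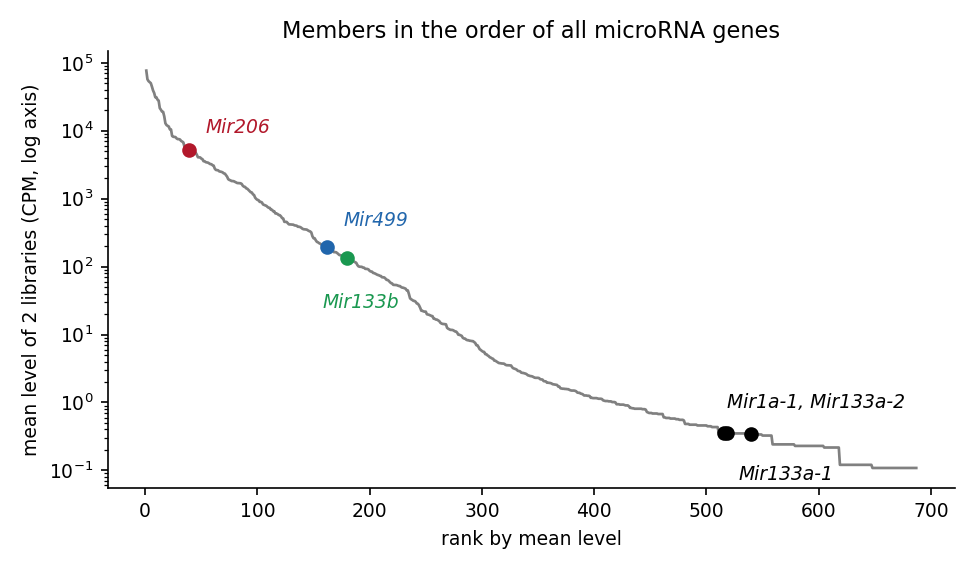
Mean level of the 2 libraries in CPM (log axis) against rank for all genes with at least 1 count (grey line), with the 6 members as points. Mir206 stands at rank 39, Mir499 at 162 and Mir133b at 180, while Mir133a-2, Mir1a-1 and Mir133a-1 stand at 516, 518 and 540 on the tail of single counts.

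Ratios between the members varied less than their levels. For each read of Mir133b there were 38.9 reads of Mir206 in replicate 1 (interval 36.1 to 41.9) and 40.4 in replicate 2 (36.8 to 44.5), or 39.7 ± 1.11 (SD, n = 2). Both genes overlap exons of the same noncoding gene, and the factor carries the uncertainty of the Mir133b counts given above. Mir206 exceeded Mir499 by 26.4 times in replicate 1 (24.9 to 28.1) and 27.5 times in replicate 2 (25.4 to 29.7). Mir499 exceeded Mir133b by 1.47 times in both libraries (1.34 to 1.62 in replicate 1 and 1.31 to 1.66 in replicate 2). For each of these ratios the counting intervals of the libraries overlapped. The coefficients of variation were 2.79%, 2.66% and 0.134% for these ratios, against 22.05% for the level of Mir206, 24.6% for Mir499 and 24.8% for Mir133b. The counting interval of each ratio was wider than its difference between the libraries. Coefficients this small from n = 2, 0.134% above all, therefore do not measure how steady the ratios are. The ratio of Mir206 to the red blood cell gene Mir451a was also close between the libraries, at 13.2 in replicate 1 and 12.6 in replicate 2. Its coefficient of variation was 2.98%, so such closeness is not particular to the muscle members. The median coefficient of variation of the level over the 275 genes that had 100 counts or more was 5.57%.

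Relatives outside the list include the microRNAs of other myosin genes. Mir208b lies in an intron of Myh7, the gene of the slow and beta-cardiac myosin heavy chain, and had 631 counts in replicate 1 and 432 in replicate 2, or 137 and 104 CPM. Mir208a lies in an intron of Myh6, the gene of the alpha-cardiac myosin heavy chain, and had 11 counts in replicate 1 and 9 in replicate 2, or 2.39 and 2.17 CPM. Mir208b thus exceeded Mir208a by 57.4 times in replicate 1 (interval 31.8 to 116) and 48.0 times in replicate 2 (25.1 to 106). Mir499 exceeded Mir208b by 1.67 times in replicate 1 (1.51 to 1.84) and 1.54 times in replicate 2 (1.36 to 1.74). The order of Mir133b and Mir208b was not resolved, with ratios of 1.13 (1.02 to 1.26) in replicate 1 and 1.05 (0.915 to 1.20) in replicate 2. Of the 9 near relatives 6 were in the tables and 2 had at least 10 counts in both libraries, Mir208b and Mir486. Mir486, a microRNA of muscle and red blood cells in an intron of Ank1, had 37 counts in replicate 1 and 33 in replicate 2. It shares a stretch of 90 nucleotides with Mir3107 on the opposite strand, so its counts are uncertain. Mir208a had at least 10 counts in replicate 1 alone, and so did Mir1b, whose precursor overlaps Mir1a-2 on the opposite strand, with 10 counts in replicate 1 and 7 in replicate 2. Mir378b had 4 counts in replicate 1 and 1 in replicate 2, and Mir133c had 0 counts in both libraries.

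The members were then compared between the libraries, replicate 1 over replicate 2. For each gene a two-sided exact binomial test asked whether its reads were split like the totals of the libraries, and Benjamini-Hochberg adjustment ran over the 407 genes whose counts summed to 10 or more. The test sets reads against counting noise, and it compares these libraries, not conditions. The 3 members with enough counts to enter the test were all called at an adjusted p under 0.05, and all were higher in replicate 1. Of all 407 genes 145 were called (35.6%), 64 of them higher in replicate 1 (15.7%) and 81 lower (19.9%). Calls depend on depth, and the 407 genes include many with few counts. With the test limited to genes of at least 100 counts in total, 146 of 275 were called (53.1%), 66 higher and 80 lower. The other 3 members were not tested, so the count says nothing about them. With TMM scaling the split over all genes was 78 higher and 57 lower, and with DESeq2 size factors 78 and 55; the 3 members were called as higher in replicate 1 under both.

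Mir206 was 1.37 times higher in replicate 1 (interval 1.34 to 1.40), a log2 ratio of 0.45, with an adjusted p of 2.5e-241 by the exact binomial test. Mir499 was 1.42 times higher (1.29 to 1.57; log2 ratio 0.51, adjusted p = 6.13e-12 by the same exact test), and Mir133b was 1.42 times higher (1.26 to 1.61; log2 ratio 0.51, adjusted p = 1.89e-08 by the exact test). The intervals of the 3 ratios overlapped. Among these 275 genes, Mir133b, Mir499 and Mir206 ranked 3, 4 and 6 by log2 ratio. The median of these 275 genes was -0.03, and the middle 95% ran from -0.48 to 0.40, so the members lay above that range. Over all 407 genes, which include many with few counts, the middle 95% ran from -0.99 to 0.82, and the members lay inside it with 28 genes at or above Mir206, itself included. The exact test of edgeR needs a biological coefficient of variation, which was set here to assumed values. Estimated from both libraries as 1 group it was 8.80%. With 0.1, 0 of 407 genes were called and the adjusted p of each member was 1, while 16 genes, the 3 members among them, had an unadjusted p under 0.05. With 0.2 it called 0 genes too, and 3 genes, none of them a member, had an unadjusted p under 0.05.

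**Figure D4:**
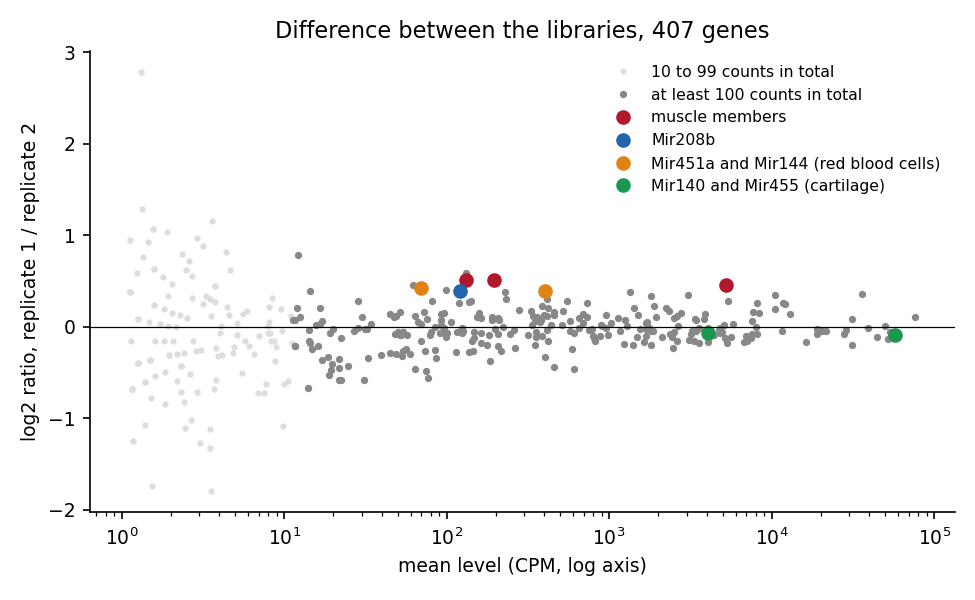
Log2 ratio of the level in replicate 1 over that in replicate 2 against the mean level in CPM (log axis) for the 407 genes tested. The 3 muscle members (red) lie between 0.45 and 0.51, near the upper edge of genes with at least 100 counts, beside Mir208b at 0.39 and the red blood cell genes Mir451a and Mir144, while the cartilage genes lie just below 0.

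Other microRNAs of several kinds moved with the members. Of the 275 genes with 100 counts or more, Mir302d, Mir679 and Mir666 ranked 1, 2 and 5 by log2 ratio, at 0.78, 0.58 and 0.46. They are in none of the tissue lists. Mir302d had only 71 counts in replicate 1 and 37 in replicate 2, so its ratio is less certain. Mir208b was 1.31 times higher in replicate 1 (interval 1.16 to 1.49), with an adjusted p of 6.08e-05 by the exact binomial test, and it was the 1 gene called of 4 near relatives tested. Mir206 exceeded Mir208b by 44.1 times in replicate 1 and 42.3 times in replicate 2, with intervals that overlapped. The red blood cell list had all 3 of its genes detected and none at 0, and it summed to 547 CPM in replicate 1 and 417 CPM in replicate 2, a ratio of 1.31. Of its genes, Mir451a was at 459 CPM in replicate 1 and 350 CPM in replicate 2, and Mir144 at 79.8 and 59.4 CPM, while Mir486 was at 8.03 and 7.96 CPM. The epidermis list (Mir203 and Mir205, neither at 0) summed to 53900 CPM in replicate 1 and 43852 in replicate 2. The part of blood or skin in the members' difference was not tested. In whole limb tissue, fewer muscle cells and less of a microRNA per cell cannot be told apart.

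Markers of other limb tissues went in both directions. The cartilage list (Mir140 and Mir455, neither at 0) summed to 59560 CPM in replicate 1 and 63162 CPM in replicate 2, a ratio of 0.943. Mir126a of the endothelium had a ratio of 0.984. The Hox cluster list, 5 of 5 detected, summed to a ratio of 0.959, which rests on Mir196b at 0.910. Of its genes 3 were called higher in replicate 1 by the exact binomial test, among them Mir10a with a ratio of 1.27 and Mir10b with 1.14, and 1 was called lower. The ratio of Mir206 to Mir140 was 0.109 in replicate 1 and 0.0748 in replicate 2, so reads of skeletal muscle relative to cartilage differed 1.45 times between the libraries. The smooth muscle list (Mir143 and Mir145a, neither at 0) had a ratio of 1.11 (interval 1.09 to 1.12), below those of the skeletal muscle members.

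**Figure D5:**
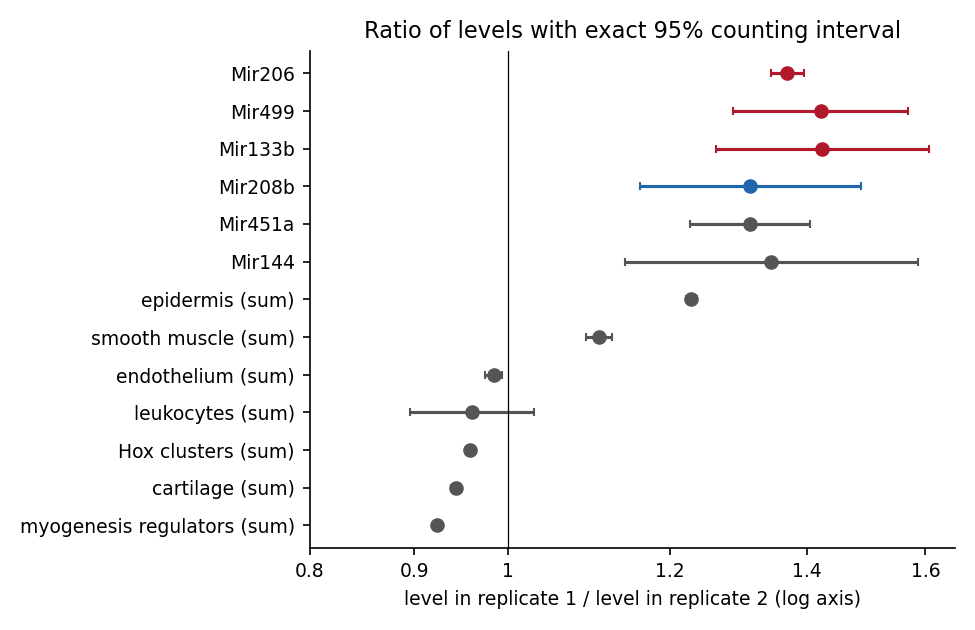
Ratio of the level in replicate 1 to the level in replicate 2 (log axis) for 3 members in red, Mir208b in blue, and the red blood cell genes Mir451a and Mir144 and summed lists in grey, with exact 95% counting intervals. The summed lists are those of other tissues and that of the regulators of muscle differentiation, which is the lowest point at 0.924. The members, Mir208b, Mir451a and Mir144 lie between 1.31 and 1.42. Mir486, also of the red blood cell list, is not drawn and has a ratio of 1.01. The sums of cartilage, Hox cluster and endothelium markers lie just below 1, that of the Hox clusters through Mir196b while 4 of its 5 genes lie above 1, and the interval of the leukocyte sum spans 1.

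MicroRNAs that many tissues express and that have been described as regulators of muscle differentiation were listed for comparison. Of 24 such genes 23 were in the tables and 20 were detected, together 96557 CPM in replicate 1 and 104552 in replicate 2. Among reads with a single alignment, which undercount listed genes with near-identical copies such as Mir26a-1, the highest were Mir322, Mir214 and Mir27b, at 53715 ± 1675, 31163 ± 3130 and 5161 ± 326 CPM. Of the 21 tested, 0 were called higher in replicate 1 by the exact binomial test and 9 were called lower (19.9% of all genes tested were). Calls depend on depth, and with the test limited to genes of at least 100 counts, 80 of 275 were called lower. The median log2 ratio of the 21 genes was -0.06, against -0.04 over all 407 genes. The genes called thus went the opposite way from the muscle members, but the list as a whole did not. Its median lay near that of all genes, and 6 of the 21 tested had a positive log2 ratio. These calls rest on own-strand totals alone. Mir31, which represses Myf5 in muscle stem cells, had 359 CPM in replicate 1 and 345 CPM in replicate 2 and was not called (adjusted p = 0.473 by the exact binomial test). Mir489, a microRNA of quiescent muscle stem cells, had 0 counts in replicate 1 and 1 in replicate 2.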

How the data were processed

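Small RNA sequencing of 2 limb samples was used. The authors deposited raw counts of reads per gene with no normalization, on the mm10 build and GENCODE annotation M4 per the read-me texts deposited with them; the aligner, the counter and their settings are not given in the sources used here. The 3 count columns have no header and were taken as either-strand, own-strand and opposite-strand counts from their values. The 4 tally rows, among them reads with several alignments (31.8% of reads in replicate 1 and 32.6% in replicate 2), entered no total and no test. No quasi-likelihood test was possible, since 1 library a side leaves no residual degrees of freedom.

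Names and positions came from GENCODE M21, which matched 1894 of 1973 genes. Detection required 10 counts in both libraries, and log2 ratios carried a prior count of 0.5. Shared stretches were searched in M21 precursors on both strands. The members and lists were chosen with earlier results of these data known. Named genes were the members, up to 3 leading genes of each list, 2 rank neighbours on each side and the 3 genes nearest to Mir206; others were picked with their values known. The scripts were tested on simulated data. Alternatives were TMM (edgeR 4.0.16) and DESeq2 1.42.0 scaling in R 4.3.3, other totals, filters, strand columns and tests, and leaving out a replicate. Python 3.11.15, scipy 1.17.1, numpy 2.4.6, pandas 2.3.3 and matplotlib 3.10.9 were used.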

Additional observations from a re-analysis of the deposited data

Results flagged for a closer look

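Opposite-strand reads, which the main measurement leaves out, exceeded the limit of 3 counts in both libraries at a pair of genes related to the members. At Mir1b there were 7 opposite-strand counts in replicate 1 and 13 in replicate 2, against 10 and 7 on its own strand. The opposite strand of Mir1b there is the own strand of Mir1a-2, a copy of the Mir1a genes for which no row of counts was used here. At Gm25301 there were 40047 opposite-strand counts in replicate 1 and 30671 in replicate 2, against 0 and 0 on its own strand. The precursor of Mir378a, a microRNA of muscle and other oxidative tissues in an intron of Ppargc1b, lies on that strand. Mir486 had 14 opposite-strand counts in replicate 1 and 1 in replicate 2, above the limit in replicate 1 alone.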

How the results depend on the processing

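Of 58 alternative values, 46 kept their direction and call or moved by less than the spread between replicates. Some of the 46 could not have come out otherwise. With 2 libraries, leaving 1 out always moves a mean level by less than the SD. The either-strand ratios between members could not change, since no member had an opposite-strand read. With a total that also counts reads of several alignments, the sum of the 6 members was 3391 CPM (5554 CPM otherwise) and Mir206 3191 CPM, since the total alone grew. With the exact test of edgeR and a coefficient of variation set to 0.1 or 0.2, the number of members called was 0 in place of 3; all other settings called 3. Leaving out a replicate moved the sum between 4682 and 6425 CPM, Mir206 between 4411 and 6041 CPM, its ratio to Mir133b between 38.9 and 40.4 and its ratio to Mir499 between 26.4 and 27.5. No value reversed. No paired analysis was possible because there was 1 group. Depth and multiple alignment limit Mir1a-1, Mir133a-1 and Mir133a-2, each with 1 or 2 counts a library.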
